A study of Mus musculus with 9 samples.

Results

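The genes described here encode proteins with which killer lymphocytes destroy other cells. In the sample table of this series, 4 of 2889 genes had the symbol Prf1 or Fasl or a granzyme symbol of 1 letter after Gzm: Gzmb (ENSMUSG00000015437), Gzmc (ENSMUSG00000079186), Prf1 (ENSMUSG00000037202) and Fasl (ENSMUSG00000000817). The RefSeq annotation holds 12 such symbols, and the other 8, Gzma and Gzmk among them, were not analysed here. The table holds only genes that the authors had called changed in these same samples, so the members were in part chosen by their measured differences from unconditioned medium, and for those differences the members are given with fold changes and no p-value, their counts past a threshold serving only as a description.

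Wild-type C57BL/6 mice gave splenic T cells carrying CD3, isolated by removing the other cells, and 3 mice each supplied 1 sample per medium. For 4 h the cells were held in medium conditioned by adipocytes, in medium conditioned by stromal cells, or in unconditioned RPMI, the control. All samples come from bulk RNA of a mixed T cell population, so a change in the number of cells that carry a transcript and a change in the RNA per cell cannot be told apart. The sources used here do not say which adipocytes and stromal cells conditioned the media. Reads on the listed genes ranged from 6522742 to 13758643 per sample.

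Killer T cells and natural killer cells store granzymes and perforin in secretory granules and release them at the contact with a target cell. Perforin forms pores in the target membrane, and granzymes, a family of serine proteases, enter through them and cleave proteins that drive cell death. Fas ligand is a surface protein that acts without granules, by engaging the death receptor Fas. Resting naive T cells carry little granzyme B, and its gene is switched on after stimulation through the T cell receptor and cytokines.

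Gzmb and Gzmc lie next to each other in a cluster of serine protease genes on chromosome 14, Prf1 lies on chromosome 10 and Fasl on chromosome 1. The stretch just before each annotated start is shown because the 4 genes did not move together across the media. The sequences are RefSeq's, build GRCm38.p6, read 5′ to 3′ on the strand of the gene, and end at the base before the start (for Prf1, before the furthest upstream start annotated for the gene). Capitals mark matches, on either strand, to the letters TGANTCA (AP-1), TGACGT (CRE), TGTGGT (RUNX), AGGTGT (T-box), GGAAGT (ETS) and TTCNNNGAA (STAT). The windows are chr14:56262335-56262584 (minus strand) for Gzmb, chr14:56234658-56234907 (minus strand) for Gzmc, chr10:61297586-61297750 (plus strand) for Prf1 and chr1:161788496-161788745 (minus strand) for Fasl.
Gzmb: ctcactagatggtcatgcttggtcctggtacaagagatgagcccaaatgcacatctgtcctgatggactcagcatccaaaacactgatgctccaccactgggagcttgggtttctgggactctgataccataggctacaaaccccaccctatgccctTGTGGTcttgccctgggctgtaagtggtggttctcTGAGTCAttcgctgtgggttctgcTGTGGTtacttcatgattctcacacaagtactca
Gzmc: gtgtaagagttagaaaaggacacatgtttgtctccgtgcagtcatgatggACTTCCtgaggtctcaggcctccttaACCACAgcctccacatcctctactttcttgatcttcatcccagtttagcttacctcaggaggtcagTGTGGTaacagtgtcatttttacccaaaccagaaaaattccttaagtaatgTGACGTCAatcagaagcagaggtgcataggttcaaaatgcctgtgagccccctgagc
Prf1: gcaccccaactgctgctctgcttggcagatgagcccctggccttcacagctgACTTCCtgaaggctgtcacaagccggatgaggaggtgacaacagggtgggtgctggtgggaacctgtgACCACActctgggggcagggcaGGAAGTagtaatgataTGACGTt
Fasl: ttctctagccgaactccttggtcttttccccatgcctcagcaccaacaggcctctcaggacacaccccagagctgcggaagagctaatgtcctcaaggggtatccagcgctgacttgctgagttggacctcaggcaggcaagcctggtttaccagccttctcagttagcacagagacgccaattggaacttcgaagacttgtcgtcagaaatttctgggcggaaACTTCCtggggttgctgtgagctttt

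The Gzmb window held 1 AP-1 match, which 6.87% of all 27025 promoter windows of 250 bases held, and 2 RUNX matches, where 14.2% of windows held at least 1. The Gzmc window held 2 RUNX matches, 1 ETS match (20% of windows) and 2 CRE matches that overlap each other as both strands of 1 palindrome (6.56% of windows). In the 165 bases shown for Prf1 there were 2 ETS matches, 1 RUNX match and 1 CRE match. The first 165 bases of all windows held these letters in 11.7%, 9.53% and 2.79% of promoters. That part leaves out the bases nearest the start, whereas the Prf1 stretch ends at a start, so the shares are not matched in position. In whole windows of 250 bases the shares were 20%, 14.2% and 6.56%. The Fasl window held 1 ETS match alone. T-box letters were in 12% and STAT letters in 7.18% of windows of 250 bases and in 0 of the 4 shown. These matches describe letters only and say nothing of binding.

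Granzyme B transcript was low in unconditioned medium, higher in stromal medium and highest in adipocyte medium. Gzmb had 9639, 7457 and 8954 normalized counts in the adipocyte medium samples of mice 1, 2 and 3, 1419, 1866 and 1360 in stromal medium, and 741, 585 and 545 in unconditioned medium. The 3 ranges did not overlap, and both conditioned media lay above the control in every mouse. The means were 8683 ± 1116 in adipocyte and 624 ± 104 in unconditioned medium (SD, n = 3 each), a 13.9-fold difference. The log2 fold change on the log2(value + 1) scale was 3.80 (SE 0.15), with 3.70, 3.67 and 4.04 in the 3 mice, and ranked 35 of the 2868 genes tested, counted from the highest. In stromal medium the mean was 1548 ± 277 (SD, n = 3), 2.48-fold that of the control, and the log2 fold change was 1.31 (SE 0.15), with 0.94, 1.67 and 1.32 by mouse.

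Granzyme C, a granzyme of strongly stimulated killer cells in mice, followed the same order at a much lower level. Gzmc had 154, 139 and 157 normalized counts in adipocyte medium, 92.6, 89.0 and 61.1 in stromal medium, and 19.996, 27.8 and 15.1 in unconditioned medium. Again the 3 ranges were separate. Behind the control values stood 14, 32 and 17 reads, so counting error alone is large there. The log2 fold change was 2.82 (SE 0.28) in adipocyte and 1.92 (SE 0.28) in stromal against unconditioned medium, and Gzmc ranked 71 from the highest in stromal medium, ahead of Gzmb at 164. Of its stretches of 50 bases, 4.14% also occur in transcripts of Gzme, Gzmg or Gzmd, so some of its reads could belong to those genes. How many depends on the levels of those genes, which were not analysed here. Gzmb, Prf1 and Fasl shared 0 such stretches with transcripts of any other annotated gene.

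Perforin went another way. Prf1 had 1512, 786 and 2082 normalized counts in adipocyte medium, 417, 550 and 552 in stromal medium, and 1747, 1861 and 1674 in unconditioned medium. Every stromal sample was below every control sample, whereas the adipocyte samples reached from below to above the controls. In stromal medium the mean was 506 ± 77.2, against 1760 ± 94.4 in unconditioned medium (SD, n = 3 each), a ratio of 0.288. The log2 fold change was -1.81 (SE 0.26), with -2.06, -1.76 and -1.60 by mouse, and ranked 34 from the lowest of the 2868 genes. In adipocyte medium the log2 fold change was -0.38 (SE 0.26), with -0.21, -1.24 and 0.31 by mouse. Without the adipocyte sample of mouse 2 it was 0.012, so the value below 0 rests on that library.

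Fas ligand was higher in adipocyte medium, and its stromal and control ranges overlapped. Fasl had 3971, 2848 and 4013 normalized counts in adipocyte medium, 1335, 1722 and 1114 in stromal medium, and 1708, 1649 and 1524 in unconditioned medium. All adipocyte samples exceeded all others, and the stromal values fell on both sides of the controls. The log2 fold change was 1.13 (SE 0.16) in adipocyte against unconditioned medium, with 1.22, 0.79 and 1.40 by mouse. In stromal against unconditioned medium it was -0.25 (SE 0.16), with -0.35, 0.06 and -0.45 by mouse.

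**Figure D1:**
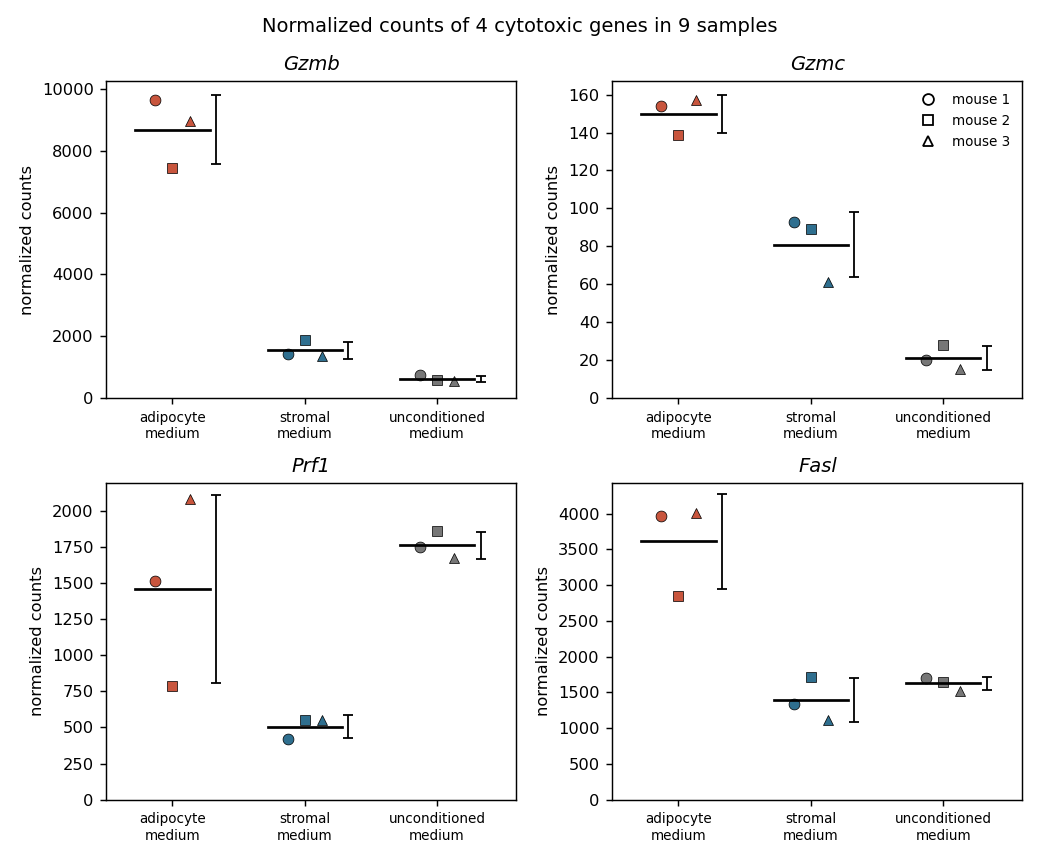
Normalized counts (y axis, linear, from 0) of Gzmb, Gzmc, Prf1 and Fasl in each of the 3 media; symbols are mice, the line is the mean and the bar to its right 1 SD (n = 3). Gzmb and Gzmc step down across the media without overlap, Prf1 is lowest in stromal medium at 417 to 552, and the adipocyte sample of mouse 2 is the lowest of its group for all 4 genes.

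In adipocyte against unconditioned medium 3 of the 4 members were past an adjusted p of 0.05 in the limma fit, all higher, and the same 3 had ranges that did not overlap. Among all 2868 genes tested 97.2% were past that threshold, 33.8% higher and 63.4% lower, and 97% had separate ranges, 33.6% higher and 63.4% lower. The table was built from changed genes, and nothing is read from the members' count. In stromal against unconditioned medium 3 members were past the threshold, 2 higher and 1 lower, where 57.7% of all genes were, 21.1% higher and 36.6% lower. Separate ranges were seen for 3 members, and for 69.4% of all genes, 25.1% higher and 44.2% lower. Their values in the authors' deposited tables, which chose them, were log2 fold changes of 3.81 for Gzmb, 2.86 for Gzmc and 1.15 for Fasl in adipocyte medium and of 1.32 for Gzmb, 1.94 for Gzmc and -1.81 for Prf1 in stromal medium. The authors' test asks for a change beyond 1.5-fold. The value nearest to its limit was that of Prf1 in stromal medium, with an adjusted p of 0.0488 in the authors' deposited table, and 3 genes of that table had a larger one; Prf1 in adipocyte medium and Fasl in stromal medium stood outside the authors' deposited tables.

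**Figure D2:**
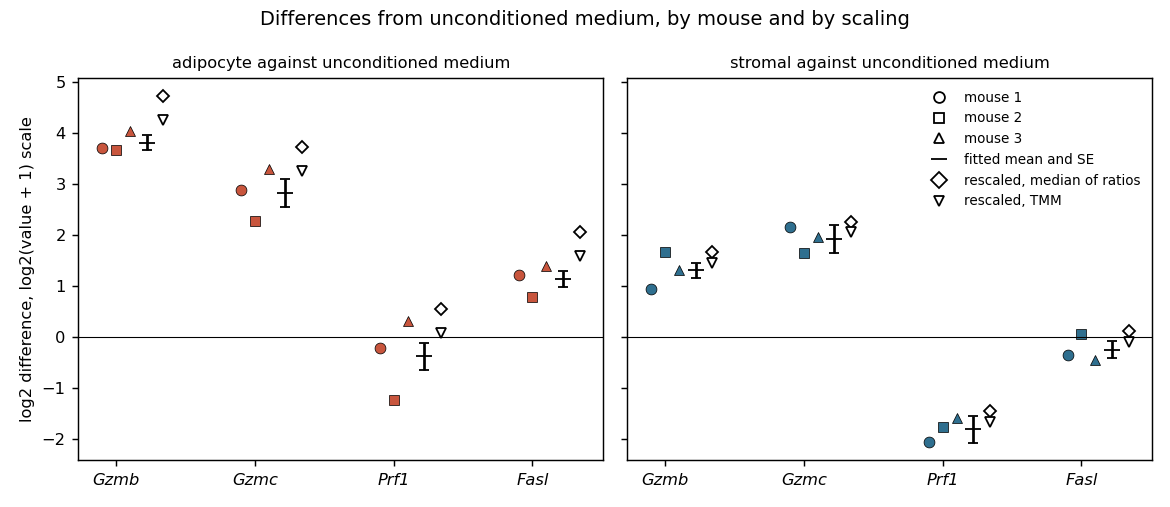
Log2 differences from unconditioned medium on the log2(value + 1) scale for the 4 genes in adipocyte (left) and stromal (right) medium; filled symbols are mice, the dash and bar the fitted mean and its SE, and open symbols the fitted mean after 2 other scalings of the libraries. Gzmb and Gzmc are above 0 in all 3 mice in both media, Prf1 is below 0 in all 3 in stromal medium, and Prf1 in adipocyte medium lies on both sides of 0.

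Values against unconditioned medium move with the scaling of the libraries. A median of ratios over the listed genes moves the median gene by 0.93 on the log2 scale in adipocyte and by 0.36 in stromal against unconditioned medium, and TMM by 0.45 and 0.14. The counts of genes past the threshold were 969 higher and 1818 lower in adipocyte medium on the deposited scale, 1078 and 1047 after the median of ratios, and 1011 and 1748 after TMM. In stromal medium they were 606 higher and 1049 lower, against 1129 and 561 after the median of ratios and 796 and 814 after TMM. Gzmb and Gzmc were higher in both media and Prf1 lower in stromal medium under all 3 scalings. Prf1 in adipocyte medium turned to 0.55 under the median of ratios and 0.070 under TMM, and Fasl in stromal medium to 0.11 under the median of ratios.

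Ratios of 2 genes within a library do not depend on that scaling. There were 6.38, 9.49 and 4.30 Gzmb reads for each Prf1 read in adipocyte medium, 3.40, 3.39 and 2.46 in stromal medium, and 0.424, 0.314 and 0.326 in unconditioned medium. Prf1 reads thus outnumbered Gzmb reads in the 3 controls, and Gzmb reads outnumbered Prf1 reads in all 6 conditioned samples. The 3 groups did not overlap. Fasl reads per Prf1 read were 2.63, 3.63 and 1.93 in adipocyte medium, 3.20, 3.13 and 2.02 in stromal medium, and 0.978, 0.886 and 0.910 in unconditioned medium. Here the conditioned media overlapped each other and both lay above the controls. For each Gzmb read the adipocyte samples held 0.0160 to 0.0186 Gzmc reads, the stromal samples 0.0449 to 0.0653 and the unconditioned samples 0.0270 to 0.0475, so Gzmc was scarcest beside Gzmb in adipocyte medium.

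**Figure D3:**
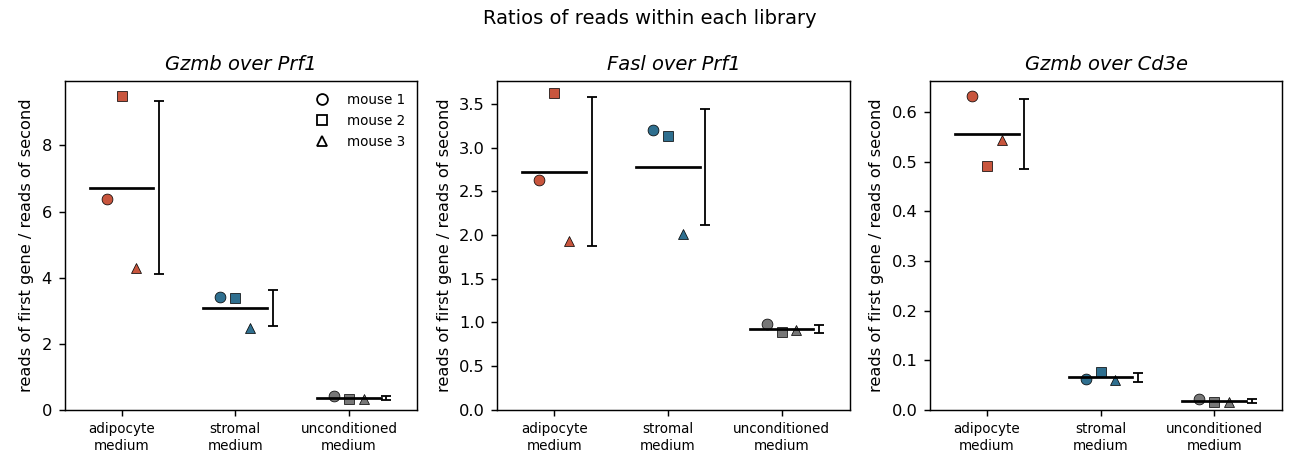
Reads of Gzmb per read of Prf1, of Fasl per read of Prf1 and of Gzmb per read of Cd3e in each library (y axes linear, from 0); symbols are mice, the line is the mean and the bar 1 SD (n = 3). The Gzmb over Prf1 ratio averages 6.72 in adipocyte, 3.09 in stromal and 0.355 in unconditioned medium.

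The order of the members by level also differed between media. Per kilobase of annotated exon, the mean level in adipocyte medium was 6047 normalized counts for Gzmb, 1864 for Fasl, 565 for Prf1 and 168 for Gzmc. In stromal medium it was 1078 for Gzmb, 718 for Fasl, 196 for Prf1 and 90.5 for Gzmc. In unconditioned medium Fasl was first with 840, before Prf1 with 681, Gzmb with 434 and Gzmc with 23.4. Neighbours in each order had separate ranges over the 3 samples, as with Gzmb at 947 to 1299 and Fasl at 575 to 889 in stromal medium, and Fasl at 787 to 882 and Prf1 at 648 to 720 in unconditioned medium.

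Adipocyte against stromal medium asked whether the conditioned media differed from each other. It is not a contrast by which the authors chose genes, but it shares all its samples with those that are, so its p-values are not independent of the selection. All 4 members were past the threshold and higher in adipocyte medium, where 91% of all genes were past it, 33.8% higher and 57.2% lower. All 4 had separate ranges, as 89.6% of all genes had, 33.4% higher and 56.2% lower. Gzmb, with the values given above, differed by 2.49 on the log2 scale (SE 0.15, limma adjusted p = 4.32e-08) and was higher in 3 of 3 mice. Fasl differed by 1.38 (SE 0.16, limma adjusted p = 4.55e-06) and Prf1 by 1.43 (SE 0.26, limma adjusted p = 2.44e-04), each higher in 3 of 3 mice. Prf1 was the least even of these, with 1.85, 0.51 and 1.91 by mouse. Fasl had entered the table through its rise in adipocyte medium alone, and Prf1 through its fall in stromal medium alone. The selection itself thus favoured these directions for Fasl and Prf1, and their p-values are descriptions and no support for a difference. Gzmc differed by 0.90 (SE 0.28, limma adjusted p = 0.00878) in 3 of 3 mice, and without the samples of mouse 3 the adjusted p was 0.0642.

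Genes whose levels ran most like each member over the 9 samples were found by Pearson correlation of log2(value + 1) with 2134 or 2135 other genes. The points fall in 3 groups by medium and share libraries, so high values are common, and the coefficient is a description. For Gzmb, 341 genes reached 0.95, led by Iqcb1 (0.997), Spag9, Caprin1, Utp4 and Dbf4 (0.996). For Fasl, 147 genes reached it, led by Tox (0.994), Fosl2, Il10, Il21r and Ifngr2 (0.990), and for Gzmc 53, led by Mrps6 (0.983), Impdh2, Klf4, Pim1 and Rbm15 (0.977). For Prf1 5 genes reached it, which were Smad1 (0.975), Arhgap4, Bcl7a, Klf2 (0.952) and Plcb2. Klf2, whose product helps to keep T cells quiescent, had 53821 ± 9412 normalized counts in adipocyte, 27913 ± 2536 in stromal and 55286 ± 3597 in unconditioned medium (SD, n = 3 each), so it, like Prf1, had its lowest level in stromal medium. In the authors' deposited clusters Gzmb, Gzmc and Fasl are in cluster 1, of 920 genes, and Prf1 is in cluster 3, of 226.

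The protease gene cluster on chromosome 14 did not move as a block. It runs from Mcpt1 to Gzmb in the RefSeq annotation and holds 13 protein-coding genes, 7 of them granzymes, and 4 are in the sample table. Beside Gzmb and Gzmc these are Ctsg, for neutrophil cathepsin G, and Mcpt8, for a protease of basophils. In adipocyte against unconditioned medium Ctsg was at -2.44 and Mcpt8 at -2.19 on the log2 scale, opposite to the 3.80 of Gzmb. In stromal medium Ctsg was at 0.47 and Mcpt8 at 0.31 (SE 0.41 for Mcpt8, not past the threshold). Which cells carried each of these transcripts was not tested.

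The other genes of the pathway were taken from 7 lists, chosen with earlier results of these data known, and the table's selection for change in these same contrasts holds for them too, so their counts are descriptions. Against them stand the shares over all genes tested, 33.8% higher and 63.4% lower in adipocyte medium and 21.1% higher and 36.6% lower in stromal medium, with all-gene medians of -1.03 and -0.17 on the log2 scale. Of 34 granule transport and fusion genes listed, 6 were tested, and in adipocyte against unconditioned medium 5 fell and 1 rose, with a median of -1.12 that lay close to that of all genes. Rab27a, a small GTPase needed for granule release, was at 878 ± 76.8 in adipocyte, 1876 ± 272 in stromal and 1984 ± 115 in unconditioned medium (SD, n = 3 each). Stxbp2, which encodes the syntaxin-binding protein Munc18-2, differed by -0.96, the organelle biogenesis genes Bloc1s6 and Hps1 by -1.12 and -1.11 and the synaptotagmin-like gene Sytl1 by -1.30 in adipocyte medium, while Sytl3 rose by 1.10. In stromal medium 4 fell and 1 rose, with Sytl1 at -1.48 and Rab27a at -0.09 (SE 0.11, not past the threshold). In adipocyte medium 2 fell and 1 rose under the median of ratios, and 5 fell and 1 rose under TMM.

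Of the granule content genes, 2 of 10 were tested. Ctsl, for the protease cathepsin L, was higher in both media, at 4949 ± 501 in adipocyte, 3589 ± 427 in stromal and 1746 ± 74.8 in unconditioned medium (SD, n = 3 each). Nkg7, for a granule membrane protein of killer cells, was at 1621 ± 366, 3150 ± 230 and 2972 ± 298, so it fell in adipocyte medium by 0.89 on the log2 scale and not in stromal medium (0.09, SE 0.14). Under the median of ratios the value of Nkg7 in adipocyte medium turned above 0. Perforin and Nkg7 therefore had their lowest mean levels in different media.

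Of 17 listed inhibitors of granzymes and related proteases 7 were tested, and in adipocyte medium 5 rose and 2 fell (median 1.82, against -1.03 over all genes, of which 33.8% were higher and 63.4% lower). Serpinb6b and Serpinb9b, serpin genes of the same clade as the granzyme B inhibitor, rose by 1.82 and 1.93, and Serpina3f and Serpina3g, close paralogs whose reads the counting could split, by 3.57 and 2.02, whereas Serpinb6a was at -2.16. Serpinb9, the mouse serpin that blocks granzyme B, was named after its values were seen: it had 7060 ± 1249 normalized counts in adipocyte, 2465 ± 285 in stromal and 2527 ± 267 in unconditioned medium (SD, n = 3 each), a log2 fold change of 1.47 (SE 0.13) and -0.04 (SE 0.13). In stromal medium 2 of the 7 rose, Serpina3g by 2.91 and Serpina3f by 2.84, and Serpinb6a fell by 0.98 on the log2 scale; the other 4 were not past the threshold. The 5 that rose and 2 that fell in adipocyte medium were as many under both other scalings.

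Death receptor ligands and receptors, with Fasl among them, rose in 8 of 11 tested cases in adipocyte medium and fell in 3, of 21 listed (median 1.13, against -1.03 over all genes, of which 33.8% were higher). Under the median of ratios 8 rose and 1 fell, and under TMM 8 rose and 3 fell. Tnfsf14, for the ligand LIGHT, rose by 2.74, Tnfrsf10b, for the mouse TRAIL receptor, by 1.82, Tnf by 1.36 and Lta, for lymphotoxin alpha, by 1.03. The 3 that fell were Tnfrsf25 at -1.29, Tnfsf10, for the ligand TRAIL, at -1.09 and Tnfrsf14, for a receptor of LIGHT, at -1.04. Tnfsf10 and Tnfrsf14 were named after their values were seen. In stromal medium 5 rose and 2 fell. Lta was at 1670 ± 38.2 in adipocyte, 448 ± 51.9 in stromal and 819 ± 88.8 in unconditioned medium (SD, n = 3 each), so it had its lowest level in stromal medium, as Prf1 did. Of the proteins that granzymes and caspases cleave or use in target cells, 3 of 27 listed genes were tested and 3 fell in adipocyte medium, where 63.4% of all genes were lower, and their median of -0.80 was nearer to 0 than that of all genes. The values were Casp9 at -1.80, Ndufv1 at -0.80 and Prkdc at -0.41; under the median of ratios 1 fell and 1 rose, and under TMM 2 fell.

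Genes listed as transcription factors of cytotoxic cells rose in 20 of 22 tested cases in adipocyte medium and fell in 1, of 49 listed (median 1.62, against -1.03 over all genes, of which 33.8% were higher). Tbx21, Eomes, Runx3 and Prdm1 were not among the 22, whereas Fos, Myc, Stat3, Tox and Bcl6 were. The count therefore does not describe factors particular to cytotoxic cells. Jun and Junb, subunits of AP-1, rose by 2.55 and 2.36, the activation-induced nuclear receptor genes Nr4a2 and Nr4a3 by 2.21 and 2.51, and the stress and cyclic AMP response factor genes Atf3 and Crem by 2.34 and 2.07. In stromal medium 10 rose and 2 fell (median 0.25, against -0.17 over all genes, of which 21.1% were higher), with Stat5a, a mediator of interleukin 2 signals, up by 1.31 and Crem by 1.16, and Klf2 at -0.99. Cytokine and receptor genes listed for a link to cytotoxic genes rose in 9 of 12 tested cases in adipocyte medium and fell in 3, of 28 listed (median 1.31, with 33.8% of all genes higher and 63.4% lower). Il4, Il4ra and Il10 were among those that rose. The direction in which each listed gene acts on cytotoxic genes was not tested. The largest rises of the 12 were those of Il4, by 5.14 on the log2 scale, and Il21, by 4.97, and Il10 rose by 2.32. Il2 had 1621 ± 692 normalized counts in adipocyte, 157 ± 24.3 in stromal and 127 ± 23.3 in unconditioned medium (SD, n = 3 each), and Ifng 1809 ± 273, 354 ± 30.6 and 116 ± 17.7. In stromal medium 5 of the 12 rose, Ifng by 1.61 and Il4 by 1.14 among them, and 2 fell, with Il18r1 at -1.02. In adipocyte medium 21 of 22 factor genes and 11 of 12 cytokine genes rose under the median of ratios, and 21 and 9 under TMM.

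**Figure D4:**
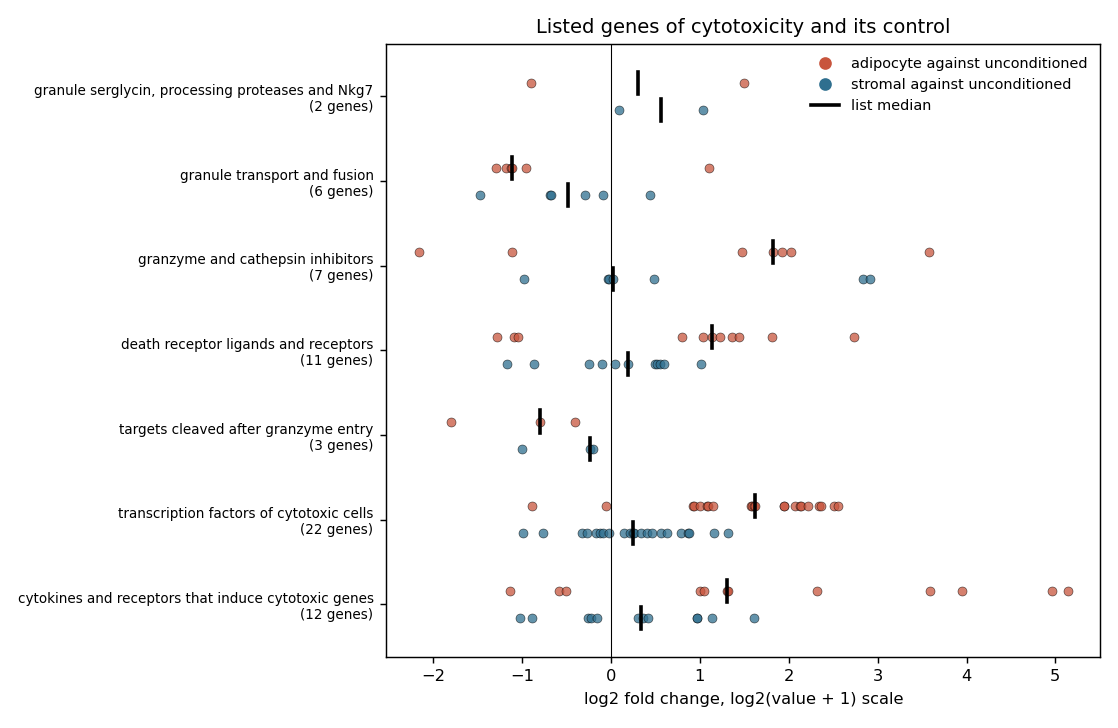
Log2 fold changes against unconditioned medium (x axis, log2(value + 1) scale) of the tested genes of 7 lists, adipocyte medium above and stromal medium below in each row; points are genes and black ticks list medians. The factor and cytokine lists lie mostly above 0 in adipocyte medium, with medians of 1.62 and 1.31, and the granule transport list mostly below it.

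Markers of the cells that could carry these transcripts moved as well. The all-gene medians beside them were -1.03 in adipocyte and -0.17 in stromal against unconditioned medium on the log2 scale. The CD8 co-receptor gene Cd8a had 2167 ± 139 normalized counts in adipocyte, 11756 ± 493 in stromal and 9534 ± 810 in unconditioned medium (SD, n = 3 each). Its partner Cd8b1 had 7285 ± 67.4, 19468 ± 514 and 21214 ± 1787 in the same media, so in stromal against unconditioned medium Cd8a was at 0.30 and Cd8b1 at -0.12 (SE 0.08, not past the threshold) on the log2 scale. The counts of Cd3e, for a chain of the T cell receptor complex, were 15628 ± 715, 23434 ± 984 and 35658 ± 1434 (SD, n = 3 each). In adipocyte against unconditioned medium Cd3e was at -1.19, near the all-gene median, and Cd8a at -2.14 and Cd8b1 at -1.54. Under the median of ratios the median of Cd3e and Cd3g there went from -1.41 to -0.49. In stromal medium Cd8b1 turned above 0 under both other scalings. Gzmb reads per Cd8a read were 3.70 to 4.20 in adipocyte, 0.115 to 0.163 in stromal and 0.0528 to 0.0852 in unconditioned medium, and per Cd3e read 0.491 to 0.632, 0.0590 to 0.0760 and 0.0148 to 0.0218. Prf1 reads per Cd3e read were 0.0518 to 0.127, 0.0184 to 0.0239 and 0.0454 to 0.0516, so they were lowest in stromal medium on this measure too. Of 16 natural killer markers 2 were analysed, and their sum was 4452 to 5147 in adipocyte, 4251 to 4602 in stromal and 8810 to 10047 in unconditioned medium. Of these, Klrd1, for a receptor chain that CD8 T cells also use, was at -1.13 and -1.15 against the control in adipocyte and stromal medium, and Klre1 at 1.12 and 0.31. In adipocyte medium Klrd1 too lay near the all-gene median. The defining natural killer markers Ncr1 and Klrb1c were not analysed here, and the part of natural killer cells in the Prf1 and Gzmb values was not tested.

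Lists of B cell, myeloid, neutrophil, plasmacytoid dendritic and mast cell or basophil markers had 5, 6, 5, 2 and 5 members in the table, of 13, 14, 9, 8 and 9. Their sums in adipocyte medium were 462 to 535, 2170 to 2596, 191 to 541, 77.7 to 131 and 1557 to 2507 normalized counts. In stromal medium they were 1466 to 2542, 7215 to 11543, 427 to 1161, 333 to 558 and 3996 to 5315. In unconditioned medium they were 1984 to 2554, 7199 to 11202, 480 to 1128, 317 to 428 and 5061 to 5800. Apart from the neutrophil list, each had separate ranges between adipocyte and unconditioned medium, with the lower one in adipocyte medium, where Gzmb was highest. The mast cell or basophil sum was mostly Kit, with means of 1827 in adipocyte and 4853 in unconditioned medium. Most of the myeloid sum came from Lyz2 (210 and 3314) and Cst3 (1584 and 3434, also on the inhibitor list). All 5 and all 6 genes of these lists were lower in adipocyte medium. Of all genes tested there, 63.4% were past the threshold and lower, and 63.4% had separate ranges with the lower one in adipocyte medium. The all-gene median was -1.03 on the log2 scale. The mast cell and basophil receptor gene Fcer1a was at 0 in at least 1 sample, and 0 of these lists held a gene at 0 in every sample. Their part in the results was not tested.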

How the data were processed

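RNA of 9 samples, from 3 mice in 3 media, was sequenced from SMART-seq v4 cDNA and Nextera XT libraries, per the labels' protocols. Such libraries do not keep strand. Builds GRCm39, GRCh38 and hg38 and the tools DESeq2, featureCounts, Trimmomatic and FastQC appear in the submitters' processing notes, without roles or versions. An aligner, the annotation and the origin of the size factors were not given in the sources used here. In the authors' deposited sample table each value is a normalized signal per gene, that is, gene counts divided by 1 size factor per sample: 100% of the values are whole multiples of a sample's smallest step within 0.001 reads. The authors' cluster number is a group label per gene. The authors' deposited comparison tables give a mean signal, a log2 fold change with its SE, the score of a Wald test, and raw and adjusted p-values. All 2889 genes of the sample table are among the 3495 of those tables, so shares and ranks here are relative to genes selected for changing.

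The 2868 genes with a mean of at least 1 were fitted by limma-trend, on log2(value + 1), in limma 3.58.1 under R 4.3.3, all 9 samples in 1 fit with the medium as the only factor, and Benjamini-Hochberg adjustment ran over all genes tested, two-sided. Changes of low genes come out too small on this scale. Raw counts would have gone to a count model; edgeR 4.0.16 and DESeq2 1.42.0 were run on the recovered reads as alternatives and called 2784 and 2786 genes in adipocyte against unconditioned medium. The replicate number names the mouse, so the numbers pair the samples. Same-numbered samples' deviations from their group means correlated at -0.12 to 0.26 over 9 pairs. Differently numbered samples were not compared, so these correlations do not test the pairing. Exon lengths and transcript stretches came from GENCODE M21 and promoters from RefSeq, which had all 4 members. The members and lists were chosen with earlier results of these data known. Named genes were the members, from each list all tested genes up to 6, or else the 5 with the largest absolute log2 fold change in adipocyte and the 3 in stromal medium, and the 5 genes most like each member outside the lowest 25% of means. The text names some of those, and also some listed genes outside this rule.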

Additional observations from a re-analysis of the deposited data

How the results depend on the processing

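Among 285 recomputed values, 272 stayed close to the reported ones: tested differences kept direction and side of the threshold, untested ones kept direction and moved by less than 1 SD over the mice, and total counts of genes past the threshold stayed within 1.5 times. The split of those totals by direction was not part of this check. It moved further, in stromal medium from 606 higher and 1049 lower to 1129 and 561 under the median of ratios. The values that did not stay close follow. Rescaling by the median of ratios moved the adipocyte against unconditioned log2 fold changes to 4.73 for Gzmb, 3.72 for Gzmc, 2.06 for Fasl and 0.55 for Prf1, and the stromal ones to 2.25 for Gzmc, -1.45 for Prf1 and 0.11 for Fasl. Under TMM the adipocyte values were 4.25 for Gzmb, 1.58 for Fasl and 0.070 for Prf1. These shifts follow the shift of all genes that each scaling makes by construction. Leaving out libraries or mice gave -0.73 to 0.053 for Prf1 in adipocyte against unconditioned medium, above 0 without mouse 2 (0.053) or its adipocyte sample (0.012), and 0.68 to 1.04 for Gzmc in adipocyte against stromal medium, where the adjusted p over all alternatives ran from 4.52e-04 to 0.0642 and passed 0.05 without mouse 3. With the mouse as a replicate block no call of a member changed, and the calls over all genes were 2788 for adipocyte and 1665 for stromal medium, each against the unconditioned one, and 2619 between the conditioned media, next to 2787, 1655 and 2609 without it. Pseudocounts of 0.5 and 5, no filter or a mean of at least 20, fits of 2 groups, edgeR and DESeq2 moved no untested member value by 1 SD or more, and no adipocyte against stromal difference of a member across the threshold. Depth limits Gzmc most, with 14 to 32 reads in the unconditioned samples.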

Other observations

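Prf1 was also lowest in stromal medium when set beside 2 other genes of killer cells within each library. Prf1 reads per Nkg7 read were 0.934, 0.625 and 1.05 in adipocyte medium, 0.143, 0.174 and 0.163 in stromal medium, and 0.636, 0.650 and 0.506 in unconditioned medium. The stromal samples lay below all others, and the adipocyte samples overlapped the controls. Prf1 reads per Klrd1 read were 0.387, 0.169 and 0.550 in adipocyte medium, 0.107, 0.139 and 0.129 in stromal medium, and 0.203, 0.217 and 0.172 in unconditioned medium. Here too every stromal sample was below every other sample, and the adipocyte samples lay on both sides of the controls. These genes come from the same selected table, and the differences between ratios were not tested.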
